A study of Mus musculus with 87 samples.

Results

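The brains of male 129S6/SvEvTac and C57BL/6J mice, wild-type animals of 2 inbred strains, were compared with Affymetrix MG_U74Av2 arrays. The 129S6/SvEvTac group held 13 arrays (3 of the amygdala and 2 of each other region) and the C57BL/6J group held 12 arrays (2 of each region), so that 25 of the 87 arrays of the series were used. All mice were 8 weeks of age. The regions were the amygdala, cingulate cortex, bed nucleus of the stria terminalis, hippocampus, hypothalamus and periaqueductal gray, and arrays were chosen by the strain and region in their titles, with the pituitary gland left out. The whole series covers 6 strains, and the other 4 (FVB/NJ, DBA/2J, A/J and C3H/HeJ, 50 brain arrays) served here to set the filter on low values, to estimate the spread in the pituitary gland and to place the pair among them. An array held RNA of 1 to 3 mice, and 22 of the 25 arrays name an animal that also gave another array, so the arrays are not independent mice. The 2 C57BL/6J hypothalamus arrays name the same animals. Labelling differed by region: the 9 arrays of amygdala and cingulate cortex started from 50 ng of RNA and needed amplification, and the 16 arrays of the other 4 regions started from 10 µg. Amygdala and cingulate cortex tissue was also the tissue kept in RNALater.

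C57BL/6J is the strain of the mouse reference genome and the usual background for behavioural work, and 129 strains are the source of many embryonic stem cell lines used for gene targeting. The strains descend from different ancestors, so their genomes differ at many positions in regulatory sequence and in transcripts. An array of this kind reads each transcript with short probes, and a base that differs between strains within a probe can change its reading without any change in the amount of RNA. A strain difference in a probe set is therefore a difference in signal, and where a gene has more than 1 probe set each reading is given.

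Array medians were between 42.3 and 62.6 intensity units in 129S6/SvEvTac and between 46.7 and 59.1 in C57BL/6J, and the 14 replicate pairs correlated at 0.945 to 0.991. With strain differences taken from the other 5 regions (100 probe sets), every 129S6/SvEvTac array correlated at 0.8145 to 0.9283 with the difference and every C57BL/6J array at -0.9348 to -0.7235, so no array went against its strain label. Among the 4 regions labelled alike, 10 of 11 hippocampal, 10 of 13 hypothalamic and 8 of 8 midbrain marker genes were highest in their own region (midbrain genes in the periaqueductal gray). The bed nucleus arrays went against their label here: 3 of 10 subpallial markers were highest there, Drd2, Penk, Tac1, Dlx1, Dlx2, Dlx5 and Isl1 were highest elsewhere, and 7 of 8 thalamic markers were highest in the bed nucleus arrays. None of the thalamic markers passed the strain test. On the log2 scale, the Gapdh probe set of the 3' end over that of the 5' end was at -0.06 ± 0.13 in 129S6/SvEvTac and -0.07 ± 0.10 in C57BL/6J arrays labelled from 10 µg (SD, n = 8 each), and 2.48 ± 0.45 (n = 5) and 2.76 ± 0.43 (n = 4) in arrays amplified from 50 ng. Signal near the 5' end of transcripts was thus low in the amygdala and cingulate cortex of both strains.

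Of 8121 probe sets with signal in brain, 739 (9.1%) differed between the strains over the 6 regions at an adjusted p below 0.05 in limma, with region as a block. Of these, 288 (3.55%) were higher and 451 (5.55%) were lower in 129S6/SvEvTac. All differences are 129S6/SvEvTac minus C57BL/6J on the log2(intensity + 16) scale, which understates the ratio of genes near background. The differences were mostly small: the median absolute log2 difference was 0.38 among called probe sets and 0.0875 among all tested. At least 2-fold were 60 of the called probe sets (0.739%), 18 higher (0.222%) and 42 lower (0.517%), and these stand for 46 genes. A probe set could enter the test through the group where it was highest. With a filter on the mean over the 25 arrays, 16 were higher and 31 lower at 2-fold. The median log2 difference of all probe sets was 0.00969, so over the 6 regions the arrays of the strains were shifted little against each other. By region this median was between -0.0265 (cingulate cortex) and 0.028 (hippocampus). With each array centred on its median 304 probe sets were higher and 369 lower, so the excess of lower calls depends in part on scaling. At 2-fold 19 were then higher and 41 lower. The p-values rest on the spread between arrays, part of which may be technical, and most arrays share animals. With animals as a random block 546 probe sets were called, 193 higher and 353 lower. At 2-fold 19 were then higher and 42 lower.

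**Figure D1:**
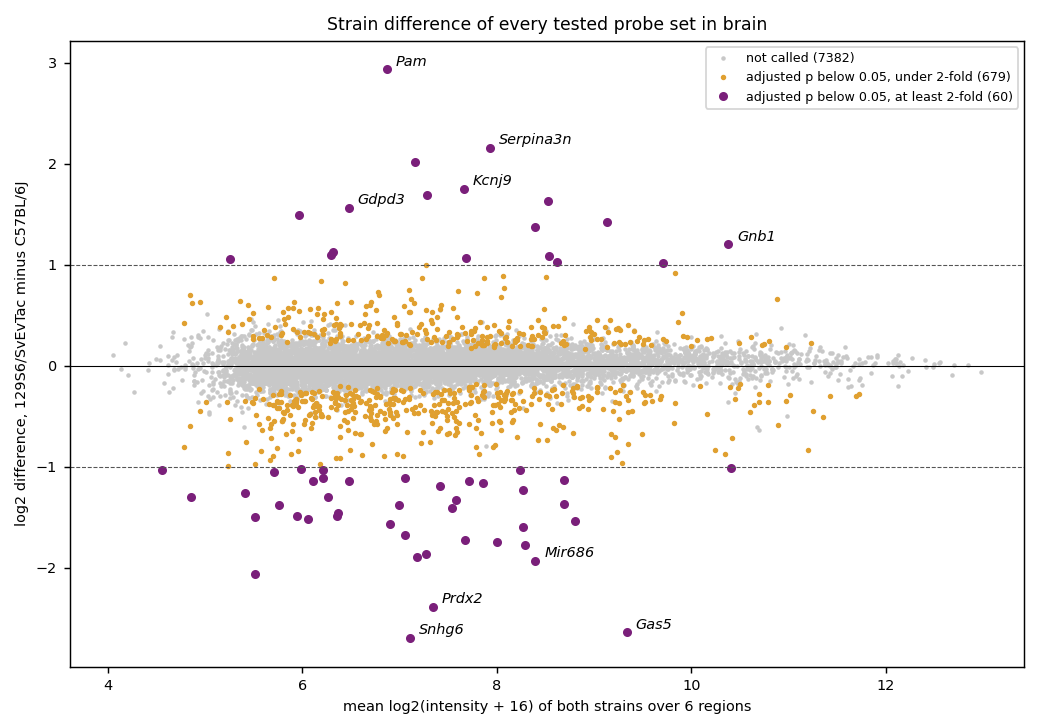
Log2 difference of each of the 8121 tested probe sets (vertical axis, 129S6/SvEvTac minus C57BL/6J) against its mean log2(intensity + 16) in both strains (horizontal axis). Purple points are the 60 probe sets called at 2-fold or more, orange points the 679 called with smaller differences, and dashed lines mark 2-fold; more purple points lie below 0 (42) than above (18).

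Pam showed the largest increase in 129S6/SvEvTac. It encodes the enzyme that adds the C-terminal amide many neuropeptides need to be active. Its intensity was between 104 and 622 in 129S6/SvEvTac arrays (median 303) and between 5.6 and 50.6 in C57BL/6J arrays (median 26.6). The groups did not overlap, and the difference was 7.65-fold (2.94 ± 0.13, SE, adjusted p = 1.68e-14). Within 129S6/SvEvTac, Pam was lowest in the amygdala and highest in the hypothalamus, where many amidated peptides are made. The difference was between 2.46 (cingulate cortex) and 3.55 (hypothalamus), and its dependence on region did not pass the test (interaction F = 2.66, adjusted p = 0.262).

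Serpina3n, a secreted inhibitor of serine proteases that reactive astrocytes are known to induce, was the next. It was 333 to 936 in 129S6/SvEvTac arrays (median 466), against 48 to 214 in C57BL/6J arrays (median 88.3), with no overlap. The difference was 4.46-fold (2.16 ± 0.12, adjusted p = 1.5e-12). It was smallest in the hypothalamus (1.11) and 2.15 to 2.71 in the other regions, and this dependence on region passed the test (F = 11.8, adjusted p = 0.00656). In the hypothalamus the 129S6/SvEvTac arrays read 420 and 472 and the C57BL/6J arrays 193 and 203.

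Kcnj9 and Gnb1 belong to 1 signalling route. Kcnj9 encodes a subunit of the potassium channels that G proteins open, and Gnb1 encodes a G protein beta subunit. Kcnj9 was between 164 and 616 in 129S6/SvEvTac arrays (median 431) and between 35.6 and 182 in C57BL/6J arrays (median 103), a 3.37-fold difference (1.75 ± 0.19, adjusted p = 2.32e-07). The ranges overlapped over all arrays and did not overlap within any region. A second Kcnj9 probe set read -0.20 ± 0.16 (adjusted p = 0.529), so only 1 of the gene's 2 probe sets carried the difference. Gnb1 had 3 probe sets, which read 1.20 ± 0.12, 1.37 ± 0.21 and 2.02 ± 0.32 over the 6 regions, and all passed the test.

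Glo1 encodes glyoxalase 1, which removes methylglyoxal, a by-product of glycolysis. It was between 862 and 1680 in 129S6/SvEvTac arrays (median 1120) and between 460 and 768 in C57BL/6J arrays (median 537). No arrays overlapped, and the difference was 2.03-fold (1.02 ± 0.05, adjusted p = 9.79e-13). The difference was between 0.87 and 1.10 in every region, and a second probe set read 0.88 ± 0.08. Gdpd3, a glycerophosphodiester phosphodiesterase, was between 98.2 and 254 in 129S6/SvEvTac arrays (median 129) and between 27.2 and 46.2 in C57BL/6J arrays (median 35.5). Its difference was 1.56 ± 0.08, with no overlap.

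**Figure D2:**
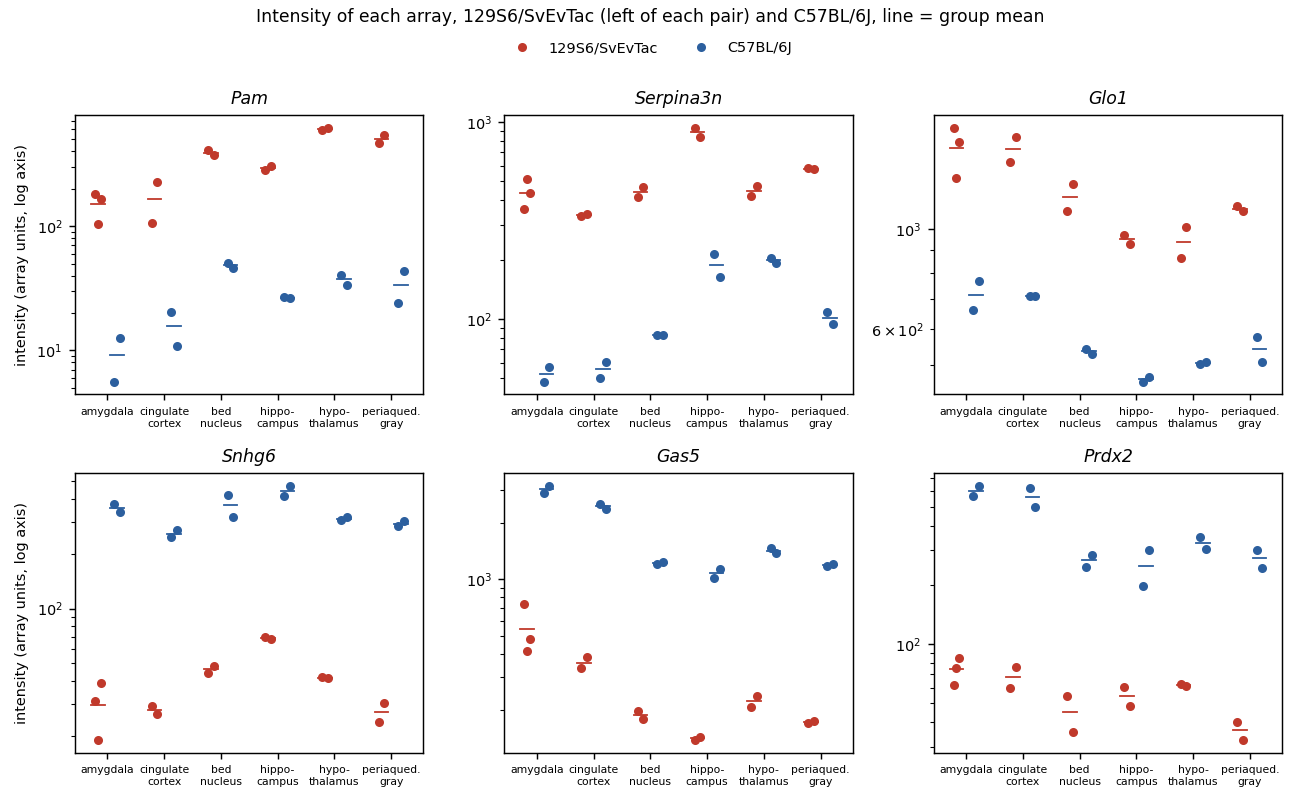
Intensity of each array (vertical log axis, array units) for 3 genes higher and 3 genes lower in 129S6/SvEvTac, by region. Red points are 129S6/SvEvTac arrays and blue points C57BL/6J arrays, and short lines are group means; in each of the 6 genes the red and blue points are separate in every region.

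The other genes named as higher had differences of 0.87 to 1.13. They were Fxyd2 (which regulates the sodium pump, 1.13 ± 0.11), Ocel1 (1.09 ± 0.09), Fam32a (1.09 ± 0.09), Hnrnpl (an RNA-binding regulator of splicing, 1.06 ± 0.07), Ccr6 (a chemokine receptor, 1.05 ± 0.16), Hbb-b2 (an adult beta globin, 1.03 ± 0.12), Spock1 (a proteoglycan of the extracellular matrix, 0.89 ± 0.07) and Sox11 (a transcription factor of developing neurons, 0.87 ± 0.10). Of the 14 genes named as higher, 5 had no overlap between the strains over all arrays (0.111% of all tested probe sets did) and 13 had none within any region (2.3% of all tested did, with 1 sign in 6 regions). The naming rule takes the largest differences with the same sign in 6 regions, so this separation follows in part from the rule. Other probe sets did not always carry the difference: Fam32a read 0.60 and 0.12 in 2 others, and Sox11 read -0.15 in its other. Hbb-b2 stands in a haplotype of beta globin genes that differs between these strains, and its sequence is close to that of the other adult beta globins, so which copy was read is uncertain. The erythrocyte list had 1 called member of 3, Hba-a1 (0.26 ± 0.06). Ccr6 was near background in C57BL/6J (-4.51 to 35.3), and its difference was 0.78 (adjusted p = 0.058) in arrays of the same region and scan day.

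The largest decreases in 129S6/SvEvTac were in a pair of noncoding genes that host small nucleolar RNAs. Their introns release small RNAs that guide chemical modification of ribosomal RNA. Snhg6 was between 19 and 69.6 in 129S6/SvEvTac arrays (median 39.0) and between 248 and 474 in C57BL/6J arrays (median 319), a 6.48-fold difference (-2.70 ± 0.08, adjusted p = 3.86e-18). Gas5 was between 139 and 736 in 129S6/SvEvTac arrays (median 209) and between 1020 and 3160 in C57BL/6J arrays (median 1300), a 6.22-fold difference (-2.64 ± 0.07, adjusted p = 1.15e-18). Neither gene's arrays overlapped between the strains. The other Gas5 probe set read -1.03 ± 0.10 and also passed the test. In Gas5 the amplified arrays, of amygdala and cingulate cortex, were the highest of each strain, so region and labelling cannot be told apart there. The difference was still between -2.79 and -2.48 in every region. Of the 11 tested members of the list of snoRNA host genes, these 2 were lower and 0 were higher (background 5.55% and 3.55%), and the list's median was -0.07.

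Prdx2, a peroxiredoxin that reduces hydrogen peroxide, was between 32.5 and 85.1 in 129S6/SvEvTac arrays (median 60.4) and between 197 and 638 in C57BL/6J arrays (median 302). The difference was -2.39 ± 0.10 (5.24-fold, adjusted p = 9.64e-15), with no overlap. The other Prdx2 probe set read 0.02 ± 0.06 (adjusted p = 0.918), so the gene's 2 probe sets disagreed. A probe set annotated to Mir686 was between 120 and 187 in 129S6/SvEvTac arrays (median 165) and between 450 and 880 in C57BL/6J arrays (median 645), a difference of -1.93 ± 0.08. RefSeq places the Mir686 locus inside the proteasome gene Psmb5, and labelled polyadenylated RNA does not measure a mature microRNA. Which transcript this probe set read was not tested. The probe set of Psmb5 itself differed the other way, by 0.36 ± 0.08 (adjusted p = 0.00585).

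Pttg1, known as securin, which keeps the protease separase inactive until sister chromatids part, was between 26.4 and 94.2 in 129S6/SvEvTac arrays (median 65.6) and between 168 and 368 in C57BL/6J arrays (median 274). Its difference was -1.89 ± 0.11, with no overlap. Kif5b, the heavy chain of the kinesin that carries cargo along axons, read -1.73 ± 0.27, and Arcn1, a subunit of the COPI vesicle coat, read -1.49 ± 0.10. Pla2g12a, a secreted phospholipase, was between 101 and 238 in 129S6/SvEvTac arrays (median 165) and between 418 and 725 in C57BL/6J arrays (median 569). It read -1.78 ± 0.09 with this probe set and 0.30 ± 0.11 with its other (adjusted p = 0.104).

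The other genes named as lower were the noncoding gene AI506816 (-1.86), 6430706D22Rik (-1.68), Strn4 (a striatin family scaffold, -1.57), Strap (a WD repeat protein of the SMN complex, -1.54), Tulp3 (a tubby family protein of cilia, -1.51) and Tbc1d15 (a GTPase-activating protein for Rab7, -1.49). Of the 14 named as lower, 11 had no overlap over all arrays (0.32% of all tested probe sets did) and 14 had none within any region. Second probe sets of AI506816, Tulp3 and Tbc1d15 read 0.15, 0.12 and -0.17 and did not pass the test. Over all 46 genes called at 2-fold, 17 had another tested probe set. In 11 of these every other probe set had the same sign, in 8 another probe set passed the test in the same direction, and in 0 did another pass in the opposite direction. Whether sequence differences under the probes set these readings was not tested.

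**Figure D3:**
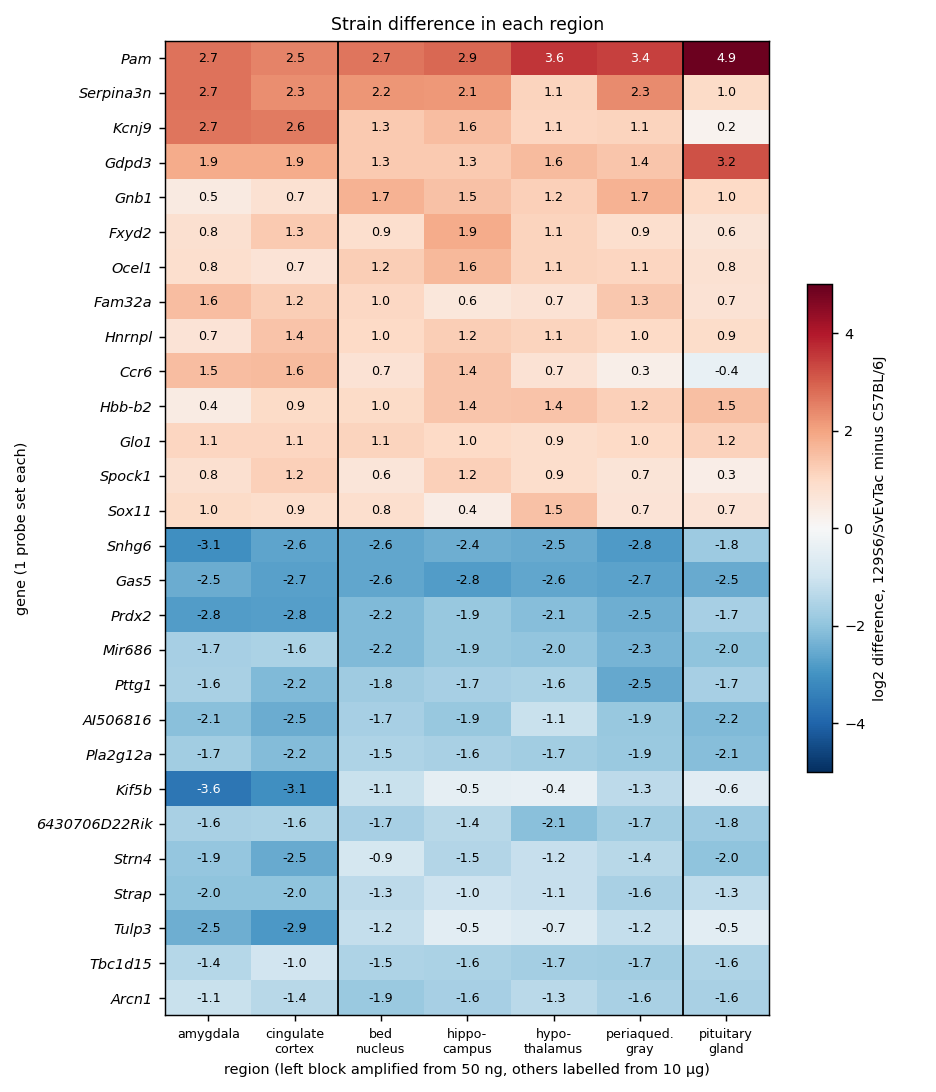
Log2 difference (129S6/SvEvTac minus C57BL/6J, colour and printed value) of the 28 named genes (rows, 14 higher above 14 lower) in the 6 brain regions and the pituitary gland (columns). Gas5 and Glo1 are close to even across regions, and Kif5b is at -3.61 in the amygdala and -0.40 in the hypothalamus.

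The strain difference was then tested within each region, with 2 arrays of each strain (3 of 129S6/SvEvTac in the amygdala). The spread came from a single fit of the 12 groups, so the regions shared it. Whether amplified arrays vary more than this shared spread was not tested. Fitted with their own spread, the 2 amplified regions together gave 183 calls (2.25%). The order of the regional counts may therefore rest on the shared spread. The cingulate cortex had the most calls, 539 higher (6.64%) and 693 lower (8.53%). The amygdala had 150 higher (1.85%) and 197 lower (2.43%), the hippocampus 96 (1.18%) and 139 (1.71%), and the hypothalamus 73 (0.899%) and 95 (1.17%). The periaqueductal gray had 33 higher (0.406%) and 75 lower (0.924%), and the bed nucleus 31 (0.382%) and 50 (0.616%). In all 6 regions lower calls outnumbered higher ones. Scan days differed between regions as well: both strains were scanned on the same day in the bed nucleus, hypothalamus and periaqueductal gray, 1 of the 129S6/SvEvTac cingulate cortex arrays shared a day with the C57BL/6J arrays, and in the amygdala and hippocampus the strains were scanned on different days. The part of the scan day in the counts of single regions was not tested. In the 15 arrays that share region and scan day across strains (7 of 129S6/SvEvTac and 8 of C57BL/6J, 4 regions), 152 probe sets were higher and 341 lower. Among them were 13 of the 14 genes named as higher and all 14 named as lower. The named genes were chosen from all 25 arrays, these 15 among them, so their passing here is no independent evidence.

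The 2 labelling protocols give separate sets of arrays. The 4 regions labelled from 10 µg gave 58 calls of 2-fold or more and the 2 regions amplified from 50 ng gave 85, and 34 were called in both in the same direction (58.6% of the first and 40% of the second). Among the 58, 54 had the same sign in the 2 amplified regions, and among the 85, 76 had the same sign in the 4 other regions, against 50.6% of all tested probe sets. Smaller differences carried over less: of 1118 probe sets called without a fold minimum in the 4 regions (13.8%), 69.1% had the same sign in the 2 amplified regions. Of 183 called in the amplified regions (2.25%), 85.8% had the same sign in the 4 others. Some mice gave arrays to both sets. Among the named genes, all 14 lower and 12 of 14 higher passed in the amplified regions alone, and the exceptions were Gnb1 (0.59) and Hbb-b2 (0.64). The named genes were chosen with the amplified arrays included, so their passing there is no independent evidence.

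The strain difference depended on the region in 203 probe sets (2.5%), of which 46 also differed over all regions and 135 had opposite signs in the amplified and the other regions. The 8 genes with the largest F were Hars, Gnb1, Kif5b, Ankrd33b, Tbc1d24, Cap1, Rbm39 and Tulp3. Hars encodes histidyl-tRNA synthetase. Its arrays read 548 to 576 in 129S6/SvEvTac amygdala, against 114 and 122 in C57BL/6J amygdala, and 549 and 574 in 129S6/SvEvTac cingulate cortex, against 109 and 154 in C57BL/6J. In the 4 other regions the differences were only 0.12 to 0.42 (F = 47.1). A probe set of Gnb1 did the opposite: it read 421 to 601 in 129S6/SvEvTac and 20.2 to 60.3 in C57BL/6J in the 4 regions labelled from 10 µg, with differences of 2.70 to 3.53, and 0.13 and -0.10 in the amplified regions (F = 44.2). Cap1, a regulator of actin filaments, followed the same pattern, at 1.97 to 2.45 in the 4 regions and 0.51 and -0.03 in the amplified ones (F = 24.4).

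Kif5b was at 17.3 to 35.4 in 129S6/SvEvTac amygdala, against 469 and 475 in C57BL/6J amygdala (-3.61), and at 200 and 224 in 129S6/SvEvTac hypothalamus, against 284 and 286 in C57BL/6J (-0.40). Tulp3 differed by -2.46 and -2.88 in the amplified regions and by -1.20 to -0.51 in the others. Tbc1d24, a gene of synaptic vesicle traffic, was lower in 129S6/SvEvTac in the amplified regions (-1.63 and -1.56), and in the 4 others the values were 0.13 to 0.35. Ankrd33b was at 7.76 and 18.8 in 129S6/SvEvTac cingulate cortex, against 555 and 637 in C57BL/6J cingulate cortex (-4.41). It also differed in the amygdala (-3.34) and hippocampus (-2.66), and in the hypothalamus both strains were near background. Rbm39, a splicing factor, was higher in 129S6/SvEvTac in the amygdala (0.93) and cingulate cortex (1.18) and lower in the hippocampus (-0.92).

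In each of these 8 genes the differences of the 2 amplified regions lay outside the range of the 4 others. In Ankrd33b the hippocampus (-2.66) was near the amygdala (-3.34). All amygdala and cingulate cortex RNA was amplified from 50 ng, which lowers signal far from the 3' end, so region and labelling cannot be told apart. Within the 4 regions labelled from 10 µg, Ankrd33b and Rbm39 kept a call for dependence on region, and Hars, Gnb1, Kif5b, Tbc1d24, Cap1 and Tulp3 lost it. Ankrd33b lost its call over the 6 regions with an offset of 1 in place of 16. Its 129S6/SvEvTac arrays were near background (-6.59 to 18.8). In those 4 regions alone 75 probe sets were called, 25 of them among the 203. The interaction test had 2 arrays in most groups. Without replicate 1 or without replicate 2 of every group, 1 array was left in most groups, so that fit cannot show whether the calls are stable.

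**Figure D4:**
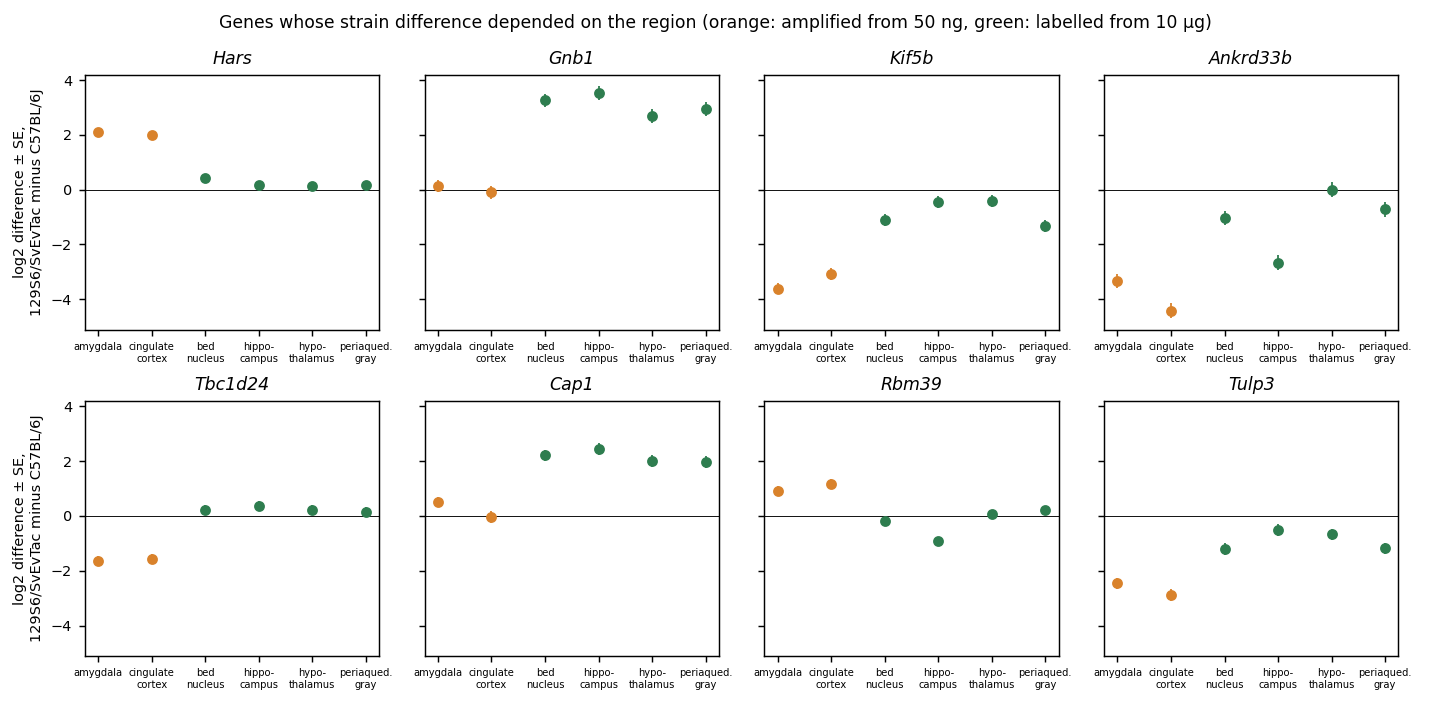
Log2 difference ± SE (vertical axis, 129S6/SvEvTac minus C57BL/6J) in each region for the 8 genes with the largest interaction F. Orange points are regions amplified from 50 ng and green points regions labelled from 10 µg; Hars is high only at the orange points (2.10 and 1.99), and this Gnb1 probe set only at the green ones (2.70 to 3.53).

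Part of the genes of microglia and complement were lower in 129S6/SvEvTac. Of 11 tested genes of this list 6 were lower and 0 higher (background 5.55% and 3.55%), with a median of -0.26 against 0.00969 over all probe sets. The members lower were Ly86 (-0.87 ± 0.12), the 3 chains of complement C1q, C1qb (-0.65 ± 0.08), C1qa (-0.65 ± 0.05) and C1qc (-0.62 ± 0.12), the signalling adaptor Tyrobp (-0.51 ± 0.06) and the protease Ctss (-0.26 ± 0.06). Each had the same sign in 6 of 6 regions. The other 5 did not pass: Cd68 (-0.18), Laptm5 (-0.11), Ptprc (-0.03), Csf1r (-0.01), the receptor microglia need to survive, and Cx3cr1 (0.03), the fractalkine receptor. C1qa averaged 125 ± 61.4 in 129S6/SvEvTac arrays (SD, n = 13) and 214 ± 92.8 in C57BL/6J arrays (n = 12), and Tyrobp 70.3 ± 10.7 and 108 ± 12.5. The SD includes differences between regions. The summed level of the list was 1110 to 3290 in 129S6/SvEvTac (median 1690) and 1570 to 3400 in C57BL/6J (median 2030). In the arrays of the same region and scan day 6 of the 11 were lower and 0 higher, beside 341 of all 8121 probe sets lower. The 4 regions labelled from 10 µg also gave 6 lower and 0 higher, beside 644 lower of all. The 2 amplified regions alone gave 1 lower, beside 112 of all. These sets are parts of the same 25 arrays, so their counts are no independent evidence. In tissue samples, fewer cells of a type and less RNA per cell cannot be told apart.

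Of 8 tested myelin genes 4 were lower and 0 higher (background 5.55% and 3.55%), with a median of -0.32 and all 8 values below 0. Mbp, the main protein that compacts myelin, averaged 2000 ± 1130 in 129S6/SvEvTac arrays and 3360 ± 1190 in C57BL/6J arrays (-0.83 ± 0.11, adjusted p = 6.88e-06). Mobp (-0.72 ± 0.13), Mag (-0.66 ± 0.14) and Mal (-0.38 ± 0.10) were the others, each lower in 6 of 6 regions. The summed level was 1250 to 8690 in 129S6/SvEvTac (median 4360) and 3320 to 9870 in C57BL/6J (median 7590). The members that did not pass were Mog (-0.27), Cldn11 (-0.27), Sox10 (-0.09) and Ugt8a (-0.02). In the 2 amplified regions alone 1 of the 8 passed. Mal missed the threshold in arrays of the same region and scan day (adjusted p = 0.0508) and with animals as a random block in limma (adjusted p = 0.0537).

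Other cell type lists had few calls or calls in both directions (background 3.55% higher and 5.55% lower). Astrocyte genes had 2 higher (Serpina3n and Fabp7, a fatty acid binding protein, 0.34 ± 0.07) and 2 lower (the water channel Aqp4, -0.34 ± 0.10, and Aldoc, -0.30 ± 0.09) of 14, with a median of -0.05. With animals as a random block Aqp4 (adjusted p = 0.0853) and Aldoc (adjusted p = 0.101) did not pass. None of 12 endothelial and pericyte genes (median -0.06), 15 genes of GABA interneurons (0.09), 13 meningeal genes (-0.08), 3 ependymal genes (0.07) or 6 choroid plexus genes (0.34) passed the test. In arrays of the same region and scan day, however, 3 of the 12 endothelial and pericyte genes were lower (median -0.14), Rgs5 (-0.60), Tie1 (-0.54) and Abcb1a (-0.30). In those arrays 341 of all 8121 probe sets were lower. In the 4 regions labelled from 10 µg 3 of the 12 were lower (median -0.16), Rgs5 (-0.69), Tie1 (-0.44) and Cdh5 (-0.30), beside 644 of all probe sets. Choroid plexus genes varied widely between arrays, with a summed level of 83.8 to 4950 in 129S6/SvEvTac and 78.6 to 2580 in C57BL/6J, and Ttr read 0.55 ± 0.62. Of the region marker lists, 0 of 13 hypothalamic (median -0.05), 8 midbrain (0.05), 8 thalamic (0.11) and 7 cortical excitatory genes (0.18) passed. The fit averages over the regions, so it can miss a marker that differs in its own region only. Zbtb20 was the 1 hippocampal gene of 11 to pass (-0.23 ± 0.06), and of 10 subpallial genes Dlx2 was higher (0.33 ± 0.10) and Zic1 lower (-0.70 ± 0.20). None of these 3 passed with animals as a random block (adjusted p = 0.057 for Zbtb20, 0.0751 for Dlx2 and 0.06 for Zic1).

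**Figure D5:**
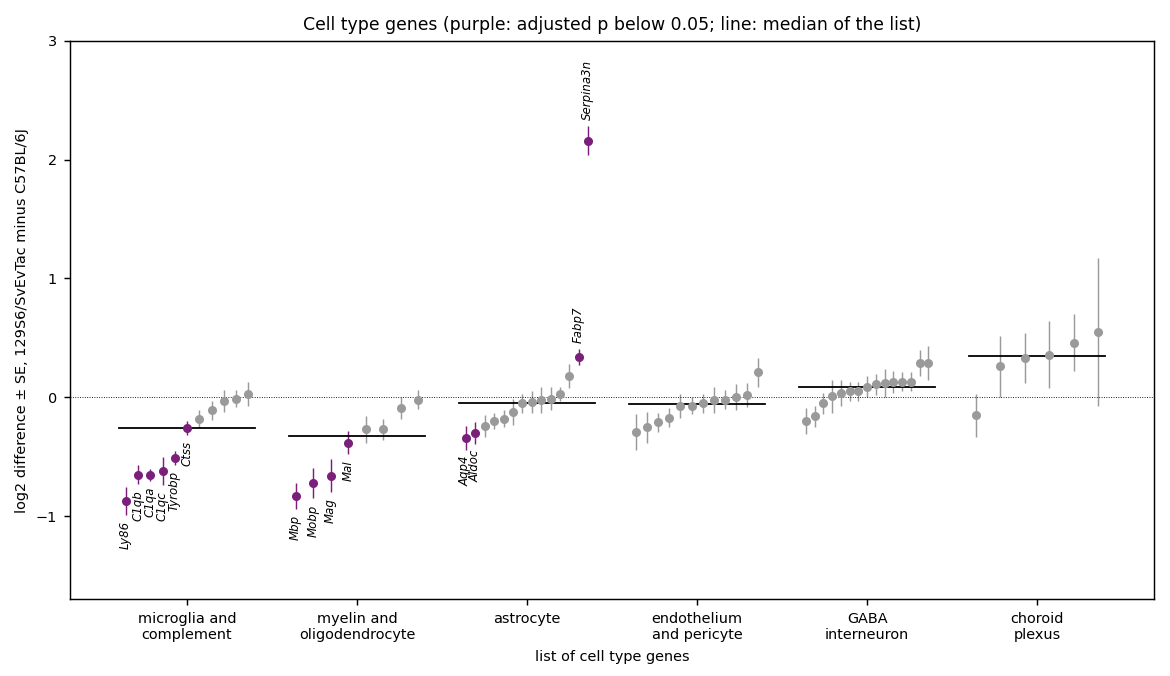
Log2 difference ± SE (vertical axis, 129S6/SvEvTac minus C57BL/6J) of the tested genes of 6 cell type lists (horizontal axis), with the median of each list as a line. Purple points passed the test; microglial and myelin genes that passed all lie below 0 (6 and 4 genes), and Serpina3n stands apart at 2.16 among astrocyte genes.

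Glyoxalase and antioxidant genes differed in both directions, 4 higher and 6 lower of 34 (background 3.55% and 5.55%, median 0.03). Besides Glo1, the higher members were Gsr, glutathione reductase (0.70 ± 0.13), the glutathione peroxidase Gpx3 (0.43 ± 0.14, adjusted p = 0.1 with animals as a random block) and the glutathione transferase Gstz1 (0.28 ± 0.05). Hagh, glyoxalase 2, which takes the product of glyoxalase 1, was lower (-0.26 ± 0.06). The other lower members were Gstm6 (-0.97 ± 0.19), Mgst1 (-0.91 ± 0.07), Gsto1 (-0.37 ± 0.07), Sod3 (-0.33 ± 0.09) and Gstm3 (-0.26 ± 0.06). The list took a gene's brightest probe set, and by this rule Prdx2 entered with its probe set at 0.02. Gsr was between 93.7 and 214 in 129S6/SvEvTac arrays (median 120) and between 31.1 and 96.8 in C57BL/6J arrays (median 78.6). Its difference was largest in the cingulate cortex (1.76) and amygdala (0.92) and 0.27 to 0.50 in the 4 others (interaction adjusted p = 0.0387), and with the 12 group means as samples it did not pass (adjusted p = 0.074).

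Among genes of transmission, 2 of 7 GABA-A receptor subunits were higher and 0 lower, where 3.55% of all probe sets were higher and 5.55% lower. Gabra2 was at 282 and 292 in 129S6/SvEvTac hippocampus, against 102 and 128 in C57BL/6J hippocampus, and over all regions it read 0.63 ± 0.15. It differed by 0.97 to 1.22 in the 4 regions labelled from 10 µg, by 0.34 in the amygdala and by -0.78 in the cingulate cortex (F = 18.4, adjusted p = 0.000519). Gabrg3 read 0.31 ± 0.08. Of 10 ionotropic glutamate receptor subunits, the AMPA subunit Gria1 (0.52 ± 0.09) and the kainate subunit Grik1 (0.24 ± 0.07) were higher and the NMDA subunit Grin2b (-0.39 ± 0.12) was lower. With animals as a random block Grik1 (adjusted p = 0.0622) and Grin2b (adjusted p = 0.0761) did not pass. G protein genes had 3 higher (Gnb1, Gng10 at 0.57 ± 0.10 and Gnb4 at 0.54 ± 0.12) and 1 lower (Gna13, -0.30 ± 0.05) of 20. Voltage-gated and potassium channel genes had 2 higher (Kcnj9 and the calcium channel Cacna1c, 0.41 ± 0.10) and 2 lower (Kcnh1, -0.46 ± 0.08, and Kcna1, -0.38 ± 0.10) of 27. Of 21 synaptic vesicle genes Stx1a was higher (0.27 ± 0.08) and Syt4 lower (-1.37 ± 0.19), and Stx1a did not pass with animals as a random block (adjusted p = 0.06).

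Neuropeptide and stress systems had few calls apart from Pam over the 6 regions. This fit averages the difference over the regions, so it can miss a gene that differs in 1 region only. Values of these lists within the hypothalamus alone are not given here, so a count of 0 cannot exclude a difference there. Of 19 neuropeptide precursors, 18 monoamine genes and 11 genes of the stress axis, 0 passed the limma test, with medians of 0.04, 0.03 and 0.00. In the 4 regions labelled from 10 µg, 1 gene of the stress axis was higher (Tsc22d3, 0.29) and 3 lower (Per1, -0.50, Sgk1, -0.47, and Hsd11b1, -0.22). In those regions 474 of all 8121 probe sets were higher and 644 lower. Pam was the 1 gene of 10 for neuropeptide processing to pass over the 6 regions (median 0.09), and 3 of the 10 were higher in the 4 regions labelled from 10 µg. Hcrt, the hypocretin precursor, read -0.28 ± 0.17 (adjusted p = 0.385), and Npy -0.20 ± 0.11 (adjusted p = 0.290). Of 18 immediate early genes 1 was higher (Jun, 0.38 ± 0.11) and 3 lower (Nr4a1, -0.43 ± 0.13, Atf3, -0.32 ± 0.08, and Ier2, -0.25 ± 0.08), beside 3.55% and 5.55% of all probe sets. With animals as a random block Atf3 alone passed (adjusted p = 0.0752 for Jun, 0.0751 for Nr4a1 and 0.112 for Ier2).

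In antigen presentation, B2m, the light chain of class I molecules, was lower (527 ± 331 in 129S6/SvEvTac, against 846 ± 318 in C57BL/6J, -0.86 ± 0.09, adjusted p = 3.84e-07). It was the 1 call among 15 histocompatibility genes (median -0.10), and Ifitm3 was the 1 call among 7 interferon genes (-0.39 ± 0.10). Over all probe sets 3.55% were higher and 5.55% lower. In the housekeeping lists, 2 of 32 proteasome genes were higher (6.25%), a larger share than the 3.55% of all probe sets. Of 24 ribosomal protein genes 1 was lower, and of 49 respiratory chain genes 1 was higher and 2 lower. The shares called in both directions were 6.25%, 4.17% and 6.12%, under the 9.1% of all probe sets. The medians of these lists were 0.00, -0.06 and 0.00. With animals as a random block the ribosomal protein call, Rplp0, was lost (adjusted p = 0.107), as was that of the respiratory chain gene Ndufb10 (adjusted p = 0.0651). Of 28 genes of vesicle coats and trafficking, 2 were higher and 2 lower, with Arcn1 far below the rest and the clathrin heavy chain Cltc at -0.36 ± 0.06. One of the higher calls, Ap3d1 (0.20), did not pass with animals as a random block (adjusted p = 0.123).

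A list of genes held to vary between 129 and C57BL/6J strains had 8 tested members, 5 higher and 2 lower. Some were put on this list with these data known, so its count is no independent evidence. Besides Pam, Gas5, Kcnj9, Glo1 and Gabra2, the list holds Nnt, the mitochondrial transhydrogenase, of which C57BL/6J lacks several exons. Nnt was between 87.2 and 202 in 129S6/SvEvTac arrays (median 157) and between 75.4 and 134 in C57BL/6J arrays (median 95.8), with overlap, and differed by 0.53 ± 0.11 (adjusted p = 0.0011). Whether its probes lie in the missing exons was not checked, so the reading does not check the deletion. Cd59a, which protects cells from complement, was lower (-1.12 ± 0.14), and the dioxin receptor Ahr read 0.10 ± 0.09 (adjusted p = 0.567).

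The other 4 strains show which member of the pair departed from their mean, which can happen where 1 of the 4 shares its level. Of the 60 probe sets called at 2-fold, 129S6/SvEvTac alone departed from the mean of the 4 by at least 2-fold in 23 (background 0.431%), C57BL/6J alone in 16 (0.332%), both in 1 (Gas5, in opposite directions) and neither in 20. These comparisons share the arrays of the pair, so they describe the same differences again. Snhg6 was at 38.4 in 129S6/SvEvTac, 37.6 to 39.6 in the 4 others and 334 in C57BL/6J, averaged over regions on the log scale. Prdx2, the Mir686 probe set, Pttg1 and Tulp3 were likewise set apart in C57BL/6J. In 6430706D22Rik, A/J (169) was near C57BL/6J (222), and 129S6/SvEvTac was at 58.3 among 40.9 to 83.8 in the other 3. Kcnj9 was at 351 in 129S6/SvEvTac, 317 to 378 in the 4 others and 95.3 in C57BL/6J, and Gnb1 and Ccr6 also departed in C57BL/6J alone.

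Arcn1 and Fxyd2 were set apart in 129S6/SvEvTac. Arcn1 was at 32.8 in 129S6/SvEvTac, 117 to 137 in the 4 others and 122 in C57BL/6J. Fxyd2 was at 102 in 129S6/SvEvTac, 26.0 to 28.5 in the 4 others and 37.5 in C57BL/6J. In several genes another strain shared the 129S6/SvEvTac level. For Pam these were 129S6/SvEvTac (308) and DBA/2J (301), with the other 3 strains at 30.9 to 36.8 and C57BL/6J at 26.1. Serpina3n was at 495 in 129S6/SvEvTac and 491 in FVB/NJ, Strap at 248 and 264 in these strains, and Pla2g12a at 153 and 142. Kif5b was at 98.9 in 129S6/SvEvTac and 105 in C3H/HeJ, and Strn4 at 53.7 and 47.2 in these. Gas5 was low in 129S6/SvEvTac (242), C3H/HeJ (268) and A/J (338) and high in DBA/2J (1240), FVB/NJ (1540) and C57BL/6J (1600).

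The pituitary gland was not used to choose any gene, and its arrays of the same strains hold other tissue, though its arrays share animals with the brain arrays. Of the 60 brain calls at 2-fold, 58 had the same sign in the pituitary gland, against 56.7% of all tested probe sets. There 43 passed the test in the same direction and 0 in the opposite, where 85 probe sets were higher (1.05%) and 129 lower (1.59%) in all. Pam differed more there than in any brain region (4.91, adjusted p = 0.000187), as did Gdpd3 (3.19). Gas5 read -2.52, the Mir686 probe set -2.00 and Glo1 1.15. Serpina3n (0.97, adjusted p = 0.0895) and Kcnj9 (0.19, adjusted p = 0.557) did not pass there. The pituitary test rests on 2 arrays of each strain, and with only these 4 arrays in the fit 23 probe sets passed in place of 214. The spread of the larger fit also came from pituitary arrays of the other strains. Of those arrays 4 do not match their strain label, which affects the spread and so which probe sets passed.

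The position of the called genes was described by their neighbours. With 6073 tested genes placed in the order of RefSeq, 12 of 45 genes called at 2-fold (26.7%) and 26.4% of the other called genes had a called gene as a direct neighbour among the tested ones, against 18.1% of genes not called. Neighbouring genes are not independent, so these shares are a description.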

How the data were processed

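RNA of brain regions was hybridised to Affymetrix MG_U74Av2 arrays, 1 array per sample. The values used are the intensities per probe set that the authors deposited in the series table. For the software and scaling behind them no source used here gives a name, and 5.98% of the brain values of the 25 arrays were below 0. Array medians of 42.3 to 62.6 and upper quartiles of 164 to 181 show values already brought to 1 scale. The 66 control probe sets were left out of 12488. A probe set was tested where its highest mean among the groups of strain and region in 75 brain arrays exceeded 54.42, the median of all brain values (8121 of 12422).

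Values were floored at 0, 16 was added and log2 was taken, with no further normalization. Differences between 129S6/SvEvTac and C57BL/6J were fitted with limma 3.58.1 (R 4.3.3) with region as a block. Interaction and single regions were fitted with 12 groups of strain and region, and calls needed a Benjamini-Hochberg adjusted p below 0.05. The number of arrays limits the precision. Symbols came from the platform annotation, updated for 10817 of 10833 probe sets with 1 symbol through RefSeq (GRCm38.p6), and probe sets with several symbols were not named. The genes named as higher and lower were those with the largest differences among called probe sets with the same sign in 6 regions, 14 each, besides the 8 genes with the largest interaction F and a list of genes given in every case. The 34 gene lists took 1 probe set per gene, the brightest. From each list up to 4 members with the largest differences were named, and further members (among them Abcb1a, Tsc22d3 and the microglial and myelin genes that did not pass) were added after their values were seen. Members and lists were chosen with earlier results of these data known. The script was tested on simulated data. Alternatives covered the offset, scaling, filter, blocks for scan day, animals, chip lot and replicate number, and leaving out arrays; the closing section gives their effect. Probe sequences were not used here.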

Additional observations from a re-analysis of the deposited data

Results flagged for a closer look

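The strain difference depended on region, by the limma interaction test, in 10 named probe sets. Each F and adjusted p is for 129S6/SvEvTac minus C57BL/6J over 6 regions, with the lowest and highest regional log2 difference. Hars had F = 47.1 (adjusted p = 4.7e-06), from 0.12 in the hypothalamus to 2.10 in the amygdala. One Gnb1 probe set had F = 44.2 (4.7e-06), from -0.10 in the cingulate cortex to 3.53 in the hippocampus, and another had F = 8.55 (0.0231), from 0.45 in the amygdala to 1.75 in the bed nucleus. Kif5b had F = 41.3 (5.25e-06), from -3.61 in the amygdala to -0.40 in the hypothalamus. Ankrd33b had F = 40.2 (5.25e-06), from -4.41 in the cingulate cortex to 0.00 in the hypothalamus. Tbc1d24 had F = 29.1 (4.98e-05), from -1.63 in the amygdala to 0.35 in the hippocampus. Cap1 had F = 24.4 (0.000135), from -0.03 in the cingulate cortex to 2.45 in the hippocampus. Rbm39 had F = 23.7 (0.000154), from -0.92 in the hippocampus to 1.18 in the cingulate cortex. Tulp3 had F = 22.9 (0.000183), from -2.88 in the cingulate cortex to -0.51 in the hippocampus. Serpina3n had F = 11.8 (0.00656), from 1.11 in the hypothalamus to 2.71 in the amygdala. For the split between amplified and other regions, region and labelling cannot be told apart.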

How the results depend on the processing

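Over 36 named probe sets, 1598 of 1614 alternatives were scored as the same, 15 as having lost the call and 1 as reversed. The reversed one was Gabra2, which read -0.17 (adjusted p = 0.747) in the 2 amplified regions. The Kcnj9 probe set that was not called was scored as the same throughout, though it ranged from -0.51 to 0.01. Leaving out 1 array changed none of 900. Gabra2 lost its call with an offset of 1 (adjusted p = 0.11), with the replicate block (0.0514), without replicate 1 or 2 and with group means. Gsr and Nnt lost theirs in sets with fewer arrays or samples, and Gnb1, Hbb-b2, Glo1 (its other probe set), Kif5b and Ccr6 lost theirs once each.

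Counts moved more. At 2-fold, an offset of 1 gave 28 higher and an offset of 50 gave 11 higher and 24 lower. Scan day as a fixed block gave 189 higher, and arrays of the same region and scan day, chosen after seeing the data, 152 higher. The 4 regions labelled from 10 µg gave 474 higher, the 2 amplified regions 71 higher and 112 lower, and the 12 group means 95 higher and 228 lower. Leaving out 1 array, or 1 replicate number of every group, gave 44 to 336 higher and 123 to 503 lower, with the low ends without replicate 1 of every group. Quantile normalization gave 258 calls in the hypothalamus, and the 4 pituitary arrays alone 23 calls.

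Same-numbered arrays did not deviate together (correlations -0.116 to 0.094), so the numbers do not pair them. With a replicate block 593 probe sets were called, 59 at 2-fold, and 97 by interaction. With a filter on the mean over the 25 arrays 141 were called by interaction. Interaction calls were the least stable: 75 in the 4 regions, and 0 to 483 on leaving out arrays, with 0 without replicate 1 or 2 of every group. Each of the 3 129S6/SvEvTac amygdala arrays left out gave 421 to 483. Calls were 90 to 134 without 129S6/SvEvTac bed nucleus 1 or 2, cingulate cortex 1, hippocampus 1 or 2 or hypothalamus 1 or 2, or without C57BL/6J amygdala 1 or 2, bed nucleus 1, hypothalamus 1 or 2 or periaqueductal gray 2. Signal near background limits the folds of low genes.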
